A study of Mus musculus with 2 samples.

Results

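The 10 genes described here are Pou5f1, Nanog, Sox2, Zfp42, Utf1, Dppa5a, Dppa4, Dppa3, Tdgf1 and Tfcp2l1, which serve as markers of pluripotent cells or of the earliest germline. They were chosen by symbol from the 32285 features counted, and all 10 were found. Expression had been measured by droplet single-cell RNA sequencing of mouse D3 embryonic stem cells taken through cardiomyocyte differentiation to day 6. The study's stated question was which subpopulation Zbtb16, a zinc finger transcription factor, acts on at the stage of the cardiovascular progenitor. The Zbtb16_KO library came from D3 cells with the Zbtb16 knockout, and the Ctrl library from D3 cells labelled wild type. Both carried the same treatment and time, and the labels do not say whether the knockout line is 1 clone. With 1 library per group nothing was tested. Every interval below is an exact 95% interval that covers counting error only, and a gene is called higher or lower where the libraries differ by at least 1.5-fold.

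Pou5f1 (Oct4) and Sox2 are transcription factors that bind DNA together and, with Nanog, hold embryonic stem cells and the epiblast in the pluripotent state. Zfp42 (Rex1), Utf1, Dppa5a, Dppa4 and Tfcp2l1 are found in pluripotent cells in culture, Zfp42 and Tfcp2l1 mainly in the naive state, which resembles the epiblast before implantation. Dppa3 (Stella) marks both naive cells and primordial germ cells, and Tdgf1 (Cripto) is a co-receptor for the ligand Nodal. Several of these genes are also known outside pluripotent cells. Sox2 is expressed in neural and posterior axial progenitors and in foregut, and Tdgf1 is expressed in the early myocardium.

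Cells were barcodes with at least 15000 unique molecular identifiers (UMIs, each marking 1 captured RNA molecule) and at most 10% mitochondrial UMIs, which left 9449 cells in the knockout library and 6354 in the control library. Median depth was 30513 UMIs per knockout cell and 37324 per control cell, and 16 barcodes occurred in both libraries. Zbtb16 itself stood at 0.994 CPM (a gene's UMIs relative to all UMIs of the same cells, on a fixed scale) in the knockout library and 22.2 CPM in the control library. All 13 genes of a cardiomyocyte list were lower in the knockout library (summed level 204 CPM, against 2498 CPM in the control library), where 11.5% of 14345 genes were at least 1.5-fold lower. Clusters that hold cells of mainly 1 library may be that library rather than a cell type. Doublets were not removed.

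Over all cells, 7 of the 10 genes were higher in the knockout library and none was lower, where 14.1% of the 14345 genes at 0.5 CPM or more were at least 1.5-fold higher. The median log2 ratio of the 10 genes was 1.43, against −0.01 over all genes. Sox2 differed most among the 10, at 23.2 CPM in the knockout library (22.7 to 23.7) and 4.33 CPM in the control library, a ratio of 5.36 (5.05 to 5.69). Dppa3 stood at 6.10 CPM in the knockout library against 1.43 CPM in the control library, and Utf1, a chromatin-bound factor of undifferentiated cells, at 8.44 CPM in the knockout library against 2.24 CPM in the control library.

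The core factors Pou5f1 and Nanog had like ratios. Pou5f1 stood at 16.3 CPM in knockout cells and 5.53 CPM in control cells (2.94-fold), and Nanog at 4.01 CPM in knockout cells and 1.33 CPM in control cells (3.02-fold). Dppa5a, an RNA-binding protein, gave the most UMIs of the 10 genes, at 74.6 CPM in knockout cells against 29.6 CPM in control cells (2.52-fold). Dppa5a belongs to a family with closely similar copies, and the sources used here do not say how reads shared between them had been counted. Zfp42 stood at 9.95 CPM in knockout cells and 5.26 CPM in control cells (1.89-fold).

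For 3 genes the libraries differed by less than 1.5-fold. Dppa4, a chromatin factor, stood at 5.36 CPM in the knockout library and 7.80 CPM in the control library. Tdgf1 stood at 5.89 CPM in the knockout library against 7.84 CPM in the control library. Tfcp2l1 stood at 2.60 CPM in the knockout library (2.43 to 2.78) and 1.75 CPM in the control library (1.61 to 1.91), a ratio of 1.48 whose interval, 1.33 to 1.66, spans the threshold. These 3 genes drew part of their UMIs from other cells than the rest.

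**Figure D1:**
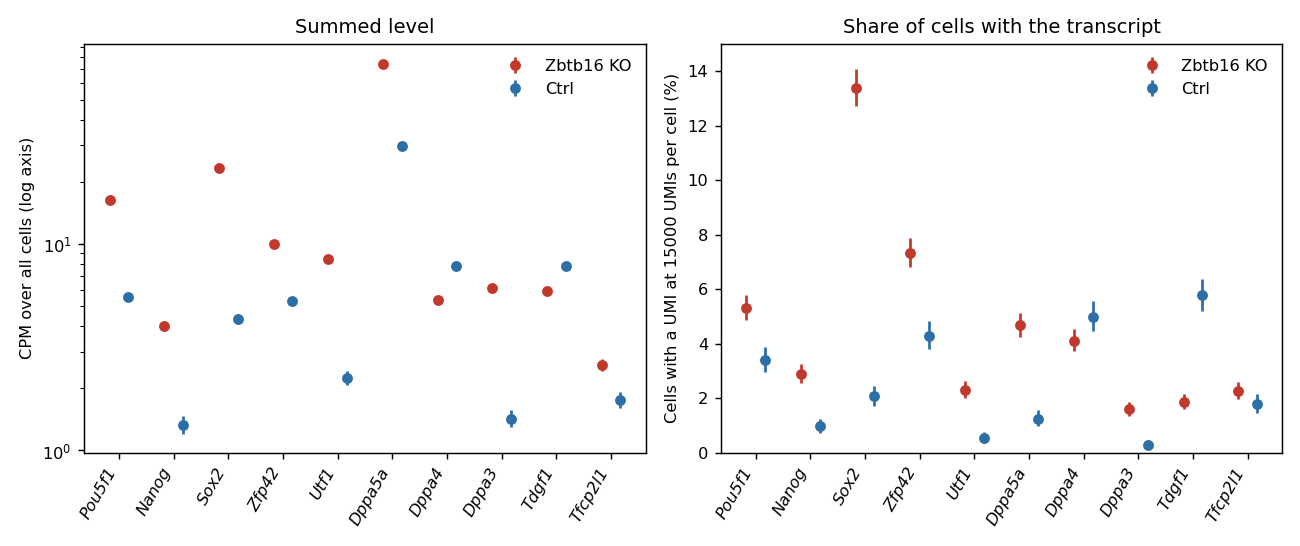
Left, summed level of each gene over all cells (CPM, log axis). Right, share of cells with at least 1 UMI after every cell was thinned to 15000 UMIs. Red points are the Zbtb16_KO library, blue points the Ctrl library, and bars are 95% intervals for counting error. Sox2 was detected in 13.4% of knockout cells and 2.06% of control cells, the widest gap among the 10 genes, while Dppa4 and Tdgf1 were detected in more of the control cells.

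Since most of these genes were found together in the same few cells, their promoters were read for the sequences that Pou5f1 and Sox2 are known to bind. RefSeq start sites on build GRCm38.p6 gave windows, from 250 bases before the start to 50 after it, for 7 of the 10 genes. The octamer core TTTGCAT (or ATGCAAA on the other strand) was present in a window of 3 genes, Nanog, Sox2 and Zfp42, and in 4.63% of all 32851 windows. The Sox core ACAATG (or CATTGT) was present in a window of 2 genes, Nanog and Pou5f1, and in 12.6% of all windows. Nanog and Pou5f1 had 2 windows each and the other genes 1, and the Sox core lay in 1 of the 2 Pou5f1 windows. The shares of all windows count windows and not genes. Both stood together in the 2 Nanog windows, which overlap, as they did in 0.813% of all windows. In the Nanog window printed here the octamer core lay 151 bases and the Sox core 143 bases before the start. Windows of the 3 genes with an octamer core, 1 each, are printed 5′ to 3′ on the strand of the gene, with matches in capitals. They lie at chr6:122707315-122707614 (plus strand) for Nanog, chr3:34649745-34650044 (plus strand) for Sox2 and chr8:43306960-43307259 (minus strand) for Zfp42.
Nanog: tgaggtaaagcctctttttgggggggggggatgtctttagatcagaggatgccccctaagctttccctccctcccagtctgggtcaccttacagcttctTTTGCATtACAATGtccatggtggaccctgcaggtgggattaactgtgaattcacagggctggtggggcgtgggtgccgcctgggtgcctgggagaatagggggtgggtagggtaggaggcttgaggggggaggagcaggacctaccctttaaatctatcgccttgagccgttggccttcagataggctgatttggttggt
Sox2: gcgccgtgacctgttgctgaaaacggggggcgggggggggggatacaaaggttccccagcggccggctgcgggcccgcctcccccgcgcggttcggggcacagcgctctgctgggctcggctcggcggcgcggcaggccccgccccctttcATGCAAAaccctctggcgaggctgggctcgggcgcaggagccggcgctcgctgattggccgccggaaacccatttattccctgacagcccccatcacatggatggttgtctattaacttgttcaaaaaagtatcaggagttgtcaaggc
Zfp42: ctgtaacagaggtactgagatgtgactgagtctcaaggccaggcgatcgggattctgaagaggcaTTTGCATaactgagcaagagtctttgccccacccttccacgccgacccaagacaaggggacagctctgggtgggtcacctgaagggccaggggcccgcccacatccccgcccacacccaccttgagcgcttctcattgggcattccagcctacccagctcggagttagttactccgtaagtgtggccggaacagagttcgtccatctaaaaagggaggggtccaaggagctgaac
The octamer core lay 99 bases before the start of Sox2 and 185 bases before that of Zfp42. A match is a description of the sequence and not a measured binding site, and the windows come from an older build than the GRCm39 named in the submitters' processing notes.

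The knockout UMIs of most genes sat in few cells. A gene whose UMIs were spread evenly by depth would have been detected in many more cells than it was. Pou5f1 was detected in 9.56% of knockout cells, where an even spread of its UMIs gives 42.4%, and Dppa5a in 8.20%, where an even spread gives 88.9%. The 1% of knockout cells richest in a gene held 89.9% of the UMIs of Dppa3, 81.0% of Utf1, 79.9% of Tdgf1, 72.6% of Dppa5a and 64.5% of Nanog. They held 58.1% of the UMIs of Tfcp2l1, 57.4% of Pou5f1, 53.2% of Zfp42 and 45.2% of Dppa4. Sox2 was the least concentrated of the 10 genes, with 29.4% of its UMIs in the richest 1% of knockout cells. In the control library the richest 1% of cells held 82.3% of the Sox2 UMIs. They held 100% of the control UMIs of Dppa3 and Utf1, 98.1% of Dppa5a, 70.2% of Nanog and 67.2% of Pou5f1. For Tfcp2l1 the control share was 53.4%, for Zfp42 52.3%, for Tdgf1 47.9% and for Dppa4 45.3%. These shares are of all UMIs of a gene and not of the difference between the libraries.

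**Figure D2:**
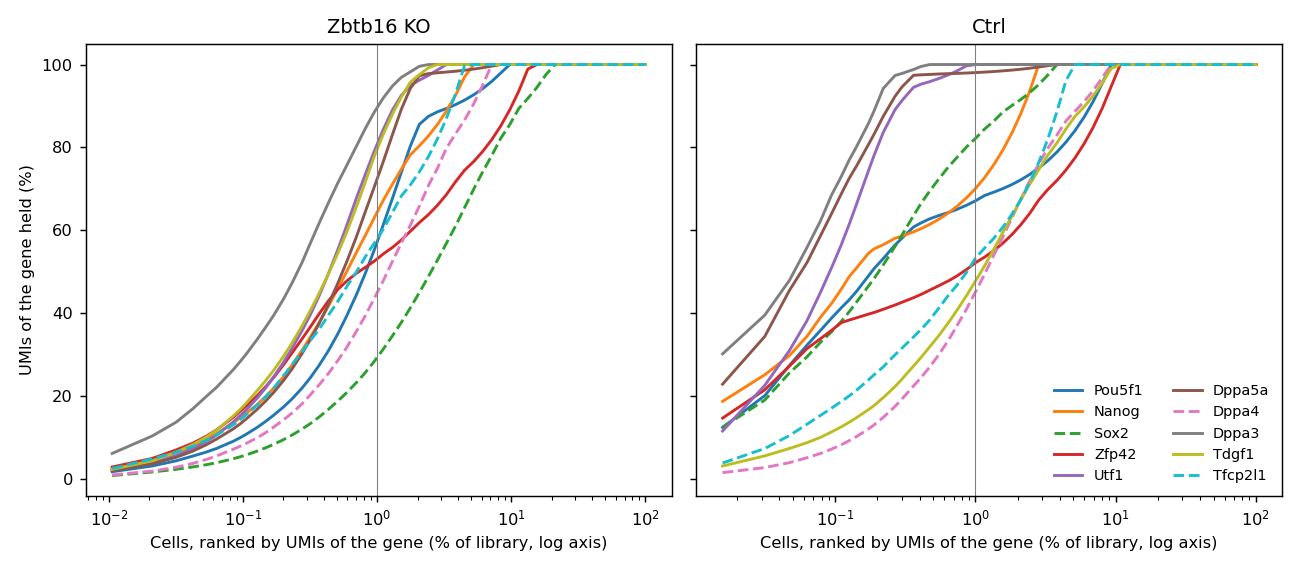
Share of each gene's UMIs (y axis, %) held by the cells richest in that gene (x axis, % of the library's cells, log axis), in the Zbtb16_KO library (left) and the Ctrl library (right). The grey line marks 1% of cells. In the knockout library the curve of Dppa3 is farthest to the left and that of Sox2 (dashed green) farthest to the right, while in the control library Sox2 holds 82.3% of its UMIs in the richest 1% of cells, more than Pou5f1, Nanog, Zfp42, Dppa4, Tdgf1 and Tfcp2l1.

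The genes were also found together. After every cell was thinned to 15000 UMIs, 226 knockout cells (2.39%, 2.09 to 2.72%) and 34 control cells (0.535%, 0.371 to 0.747%) held UMIs of at least 3 of the 10 genes. The count of genes per cell had 2 modes in the knockout library. A total of 6664 knockout cells held none of the 10 genes, 2276 held 1 and 283 held 2, then the number dropped to 11 cells with 4 genes and reached a second peak of 52 cells with 7 genes. All 10 genes were detected in 14 knockout cells and 1 control cell. Cells at 2 or 3 genes, next to the cut, numbered 314 in the knockout library and 126 in the control library.

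To read each gene in cells that it had not helped to choose, cells with at least 3 of the other 9 genes were taken. In the knockout library 7 of the 10 genes had at least 50% of their UMIs in such cells, where 0.795% of all genes did. These were Pou5f1, Nanog, Zfp42, Utf1, Dppa5a, Dppa3 and Tdgf1. Their shares ran from 55.8% for Zfp42 to 97.6% for Dppa3. Dppa4 with 45.4%, Sox2 with 32.3% and Tfcp2l1 with 14.1% of their knockout UMIs in such cells were the other 3. The share over all genes was read in another set, cells with at least 3 of all 10 genes. There 0.795% of all genes had at least 50% of their knockout UMIs.

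The same cells stood out without the 10 genes. Cells of both libraries were clustered together with all 10 genes, Zbtb16 and the mitochondrial genes left out, and 1 of 17 clusters was led by Trh, Tdh, Cdh1, L1td1 and Gdf3. It is called pluripotent-like from 3 markers among its 10 leading genes, L1td1, Tdh and Gdf3. This cluster held 215 knockout cells (2.28%, 1.98 to 2.60%) and 30 control cells (0.472%, 0.319 to 0.673%), and 202 of the 226 knockout cells and 25 of the 34 control cells with at least 3 of the 10 genes. Its cells were deeper than average, with a median of 42812 UMIs in the knockout library and 58041 in the control library. Finer and coarser clustering gave 218 and 215 knockout cells and 30 control cells each time.

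For 5 genes nearly all of the knockout excess, taken as the difference in CPM between the libraries, lay in the pluripotent-like cluster. Its share of the difference was 98.6% for Pou5f1, 98.6% for Dppa5a, 96.5% for Dppa3, 96.4% for Utf1 and 87.8% for Nanog. Zfp42 was intermediate, with 72.9% of its difference in that cluster. For Sox2 the cluster held 28.0% and for Tfcp2l1 38.3% of the difference, so that most of the excess of both lay in other cells. With cells chosen by the other 9 genes in place of the cluster, these shares were 94.0% for Pou5f1, 95.3% for Dppa5a, 97.7% for Dppa3, 95.6% for Utf1, 88.2% for Nanog, 71.5% for Zfp42, 28.2% for Sox2 and 37.3% for Tfcp2l1.

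**Figure D3:**
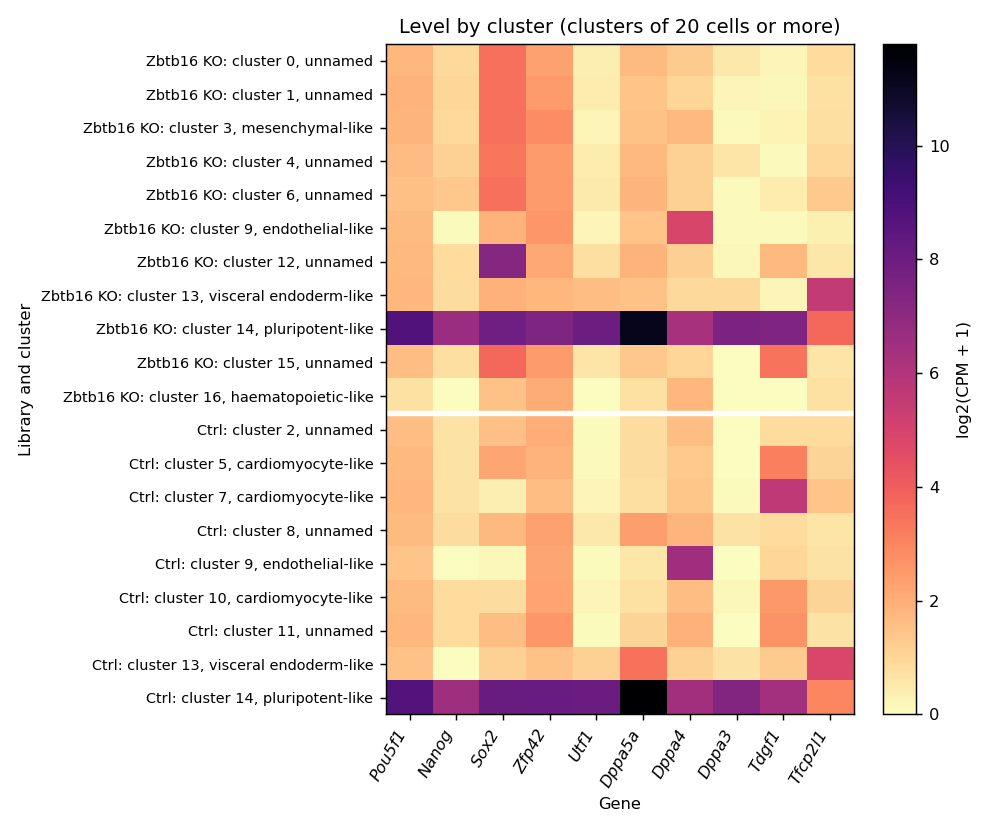
Level of each gene (columns) in every cluster with at least 20 cells (rows), as log2(CPM + 1), with the Zbtb16_KO library above the white line and the Ctrl library under it. All 10 genes are dark in the pluripotent-like cluster of both libraries except Tfcp2l1, which is darkest in visceral endoderm-like cells. Outside it, Sox2 stands out in cluster 12 of the knockout library, Dppa4 in endothelial-like cells of both libraries and Tdgf1 in a cardiomyocyte-like cluster of the control library.

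Outside the pluripotent-like cluster the core factor Pou5f1 was low and flat. It stood at 2.34 CPM in knockout cells (2.18 to 2.51) and 2.13 CPM in control cells (1.97 to 2.31), a ratio of 1.10. Across the other clusters with at least 20 cells its level ran from 0.617 to 2.67 CPM over 10 knockout clusters and from 1.77 to 2.42 CPM over 8 control clusters. Endothelial-like cells, taken as cells that should lack Pou5f1, had 2.20 CPM in the knockout library and 1.77 CPM in the control library, and no other of these clusters lay above their intervals, 1.61 to 2.94 CPM in the knockout library and 1.20 to 2.53 CPM in the control library. Free RNA, read from barcodes with 10 to 100 UMIs, held Pou5f1 at 26.0 CPM in the knockout library and 6.36 CPM in the control library. Pou5f1 also overlaps Gm19553 on the opposite strand, and reads from the overlap could not be assigned here.

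Most other genes were also low outside that cluster. Dppa5a stood there at 2.06 CPM in knockout cells and 1.39 CPM in control cells, Nanog at 0.927 CPM in knockout cells and 0.576 CPM in control cells, and Utf1 at 0.388 CPM in knockout cells and 0.155 CPM in control cells. Dppa3, with 90 UMIs in all other knockout cells and 29 in all other control cells, had 95.7% of its knockout UMIs and 93.0% of its control UMIs in the pluripotent-like cluster. Zfp42 was spread more evenly, at 4.47 CPM in knockout cells and 3.08 CPM in control cells. Its level lay between 2.41 and 6.12 CPM over the 10 other knockout clusters and between 1.85 and 4.92 CPM over the 8 other control clusters with at least 20 cells, with the top of that range in mesenchymal-like knockout cells. Free RNA held Zfp42 at 13.2 CPM in the knockout library and 5.05 CPM in the control library, and its part in these low levels was not tested.

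**Figure D4:**
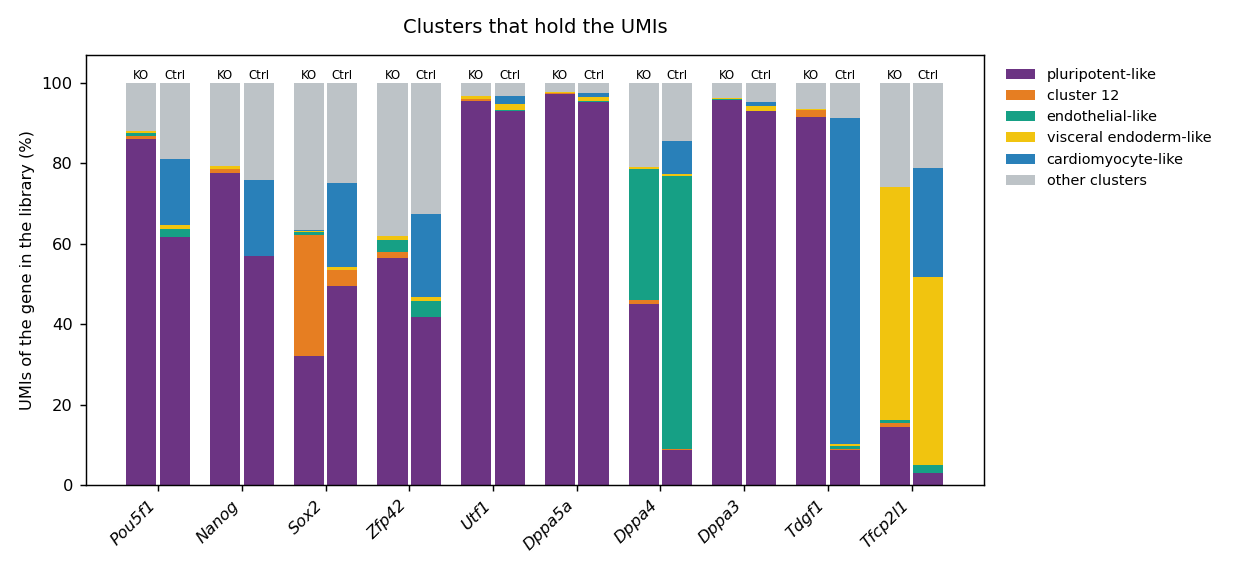
Share of each gene's UMIs (y axis, %) that came from each group of clusters, with the Zbtb16_KO library in the left bar and the Ctrl library in the right bar of each pair. The pluripotent-like cluster supplied over 95% of the knockout UMIs of Utf1, Dppa5a and Dppa3, while Sox2, Dppa4, Tdgf1 and Tfcp2l1 drew on cluster 12, endothelial-like, cardiomyocyte-like or visceral endoderm-like cells in at least 1 library.

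Summed over the cells of the pluripotent-like cluster, the level of most genes was alike in the 2 libraries. Pou5f1 stood at 442 CPM in knockout cells and 427 CPM in control cells of the cluster (ratio 1.04, 0.967 to 1.11). Nanog stood at 98.3 CPM in knockout cells against 94.8 CPM in control cells, Utf1 at 254 CPM in knockout cells against 260 CPM in control cells, and Dppa3 at 184 CPM in knockout cells against 166 CPM in control cells. Sox2 at 235 CPM in knockout cells and 269 CPM in control cells, and Dppa4 at 76.0 CPM in knockout cells and 86.3 CPM in control cells, also differed by less than 1.5-fold. Leaving out the cell richest in the gene in each library moved some of these levels. Pou5f1 then stood at 440 CPM in knockout and 374 CPM in control cells, and Nanog at 95.8 CPM and 69.4 CPM. Dppa3 stood at 173 CPM in knockout and 118 CPM in control cells. Utf1, Sox2 and Dppa4 then lay nearer between the libraries than these 3 genes. For the genes whose excess lay there, the libraries thus differed in how many cells the cluster held more than in the summed level within it. The median cell differed more for some genes. Its level was 476 CPM in knockout and 282 CPM in control cells for Pou5f1. For Nanog it was 77.65 CPM in knockout and 26.0 CPM in control cells, and for Dppa3 76.6 CPM and 46.5 CPM. The medians of Utf1, Sox2 and Dppa4 were also higher in knockout cells, by less than 1.5-fold.

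The exceptions within the cluster went in both directions. Tdgf1 stood at 170 CPM in knockout cells and 84.6 CPM in control cells (2.01-fold, 1.73 to 2.34), in a class where 19.0% of 6212 genes at 20 CPM or more were at least 1.5-fold higher. After thinning, Tdgf1 was detected in 141 of the 215 knockout cells (65.6%, 58.8 to 71.9%) and 9 of the 30 control cells (14.7 to 49.4%). Dppa5a at 2290 CPM in knockout cells and 3529 CPM in control cells (ratio 0.649), and Zfp42 at 177 CPM in knockout cells and 276 CPM in control cells (ratio 0.643), were lower, where 3.43% of genes were. Both of these rested on 1 deep control cell. Without the cell richest in the gene in each library, Dppa5a stood at 2257 CPM in knockout cells and 2924 CPM in control cells, and Zfp42 at 169 CPM in knockout cells and 195 CPM in control cells, which is under 1.5-fold for each. Tdgf1 without its richest cells stood at 166 CPM in knockout cells and 58.2 CPM in control cells.

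Dppa4 had its highest level outside pluripotent-like cells in endothelial-like cells, of which there were 421 in the knockout library and 278 in the control library. There it stood at 28.8 CPM in knockout cells (26.5 to 31.1; 600 UMIs) and 91.5 CPM in control cells (87.0 to 96.2; 1550 UMIs), a ratio of 0.314. After thinning, 26.4% of the knockout endothelial-like cells and 56.1% of the control ones held a Dppa4 UMI. Endothelial-like cells gave 32.6% of the Dppa4 UMIs of the knockout library and 67.9% of those of the control library. In the other clusters with at least 20 cells of a library, apart from the pluripotent-like one, Dppa4 stood at 2.47 CPM or less in knockout cells and 2.70 CPM or less in control cells. The small difference of Dppa4 over all cells therefore joined an excess of 1.72 CPM from pluripotent-like cells with a deficit of 4.16 CPM from all other cells.

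Tdgf1 showed the same kind of split with other cells. In the control library 91.4% of its UMIs lay outside the pluripotent-like cluster, and 52.9% in a cardiomyocyte-like cluster of 876 cells led by Actc1, Myl3 and Sfrp5, where it stood at 48.1 CPM. The knockout library had 4 cells in that cluster. Outside pluripotent-like cells Tdgf1 stood at 0.518 CPM in knockout cells and 7.22 CPM in control cells (ratio 0.0717, 0.0610 to 0.0838). Among knockout clusters with at least 20 cells, apart from the pluripotent-like one, Tdgf1 was highest, at 9.75 CPM, in a cluster of 172 cells led by Actc1, Myh7 and Tagln.

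Tfcp2l1 was chiefly a gene of visceral endoderm-like cells, named from Ttr, Rbp4, Apob and Apom, with 208 cells in the knockout library and 116 in the control library. It stood there at 44.6 CPM in knockout cells and 27.6 CPM in control cells (1.62-fold, 1.38 to 1.89). These cells supplied 58.0% of its knockout UMIs and 46.6% of its control UMIs, and 37.0% of them in the knockout library and 27.6% in the control library held a Tfcp2l1 UMI after thinning. In pluripotent-like cells Tfcp2l1 rested on 130 UMIs in knockout cells and 16 in control cells, a ratio of 1.75 in CPM (1.04 to 3.15).

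The 215 knockout cells of the pluripotent-like cluster were not uniform. After thinning, Pou5f1 was detected in 94.0% of them and Dppa5a in 92.6%, whereas Dppa3 was detected in 61.4%, Nanog in 58.1%, Zfp42 in 57.7% and Tfcp2l1 in 15.3%. The UMIs of Pou5f1 were spread over these cells, 64 of which held 50% of them, while 20 cells held 50% of the Zfp42 UMIs and 23 cells 50% of the Dppa3 UMIs. Across these 215 cells, which come from 1 library and differ in depth, Pearson's r of log values between pairs of the 10 genes ran from −0.08 for Pou5f1 with Tfcp2l1 to 0.663 for Sox2 with Zfp42. Pou5f1 with Zfp42 gave 0.0911.

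Because Dppa3 marks both naive and germline cells, the knockout pluripotent-like cells were divided by it after their values had been seen. A total of 97 cells held at least 2 thinned Dppa3 UMIs, 35 held 1 and 83 held none. Zfp42 stood at 284 CPM in the Dppa3-containing cells and 80.4 CPM in those without. Klf2 and Klf4, naive state transcription factors, stood at 347 CPM and 37.7 CPM in the cells with Dppa3, against 99.5 CPM and 9.17 CPM in the cells without. Nr5a2, a nuclear receptor of the naive state, stood at 23.2 CPM with Dppa3 and 4.00 CPM without, and Esrrb, another, had 80 UMIs with Dppa3 and 17 without. Of 23 pluripotency genes at 20 CPM or more in either set of cells, 13 were higher and none lower with Dppa3, where 2.78% of all 6328 genes at that level were at least 1.5-fold higher and 5.47% lower. Of the 13, Fgf4, Klf4 and Nr5a2 reached that level only in the cells with Dppa3. Of 9 primed epiblast genes none was higher and 1, Lefty1, was lower. Of 9 marker genes described here at 20 CPM or more, 7, Dppa3 itself included, were higher with Dppa3 and none lower. Sox2 stood at 320 CPM with Dppa3 and 155 CPM without, and Utf1 at 359 CPM and 141 CPM. Pou5f1 stood at 470 CPM with Dppa3 and 388 CPM without. Tbx3, of the pluripotency list, ran the other way by less than 1.5-fold, at 57.9 CPM with Dppa3 and 84.0 CPM without. All 3 neuromesodermal and posterior genes at that level, T, Cdx2 and Fgf8, were lower, as were 3 of 4 trophoblast genes, Ascl2, Eomes and Plac1. Eomes stood at 15.3 CPM over all knockout pluripotent-like cells, so it reached 20 CPM only in those without Dppa3. Its being lower follows from this limit and is no result. Whether the same holds for the others named was not read here.

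Genes of the germline list divided in several ways across the same cells. Nanos3, an RNA-binding protein of germ cells, stood at 13.4 CPM with Dppa3 and 4.23 CPM without, and Prdm14, a repressor needed for germ cell specification, had 21 UMIs with Dppa3 and 0 without. Prdm1, the repressor that begins that specification, stood at 9.38 CPM (6.90 to 12.5) with Dppa3 and 6.82 CPM (4.57 to 9.79) without, with overlapping intervals. Tfap2c stood at 77.5 CPM with Dppa3 and 80.4 CPM without. The homeobox genes Rhox6 and Rhox9 ran the other way, at 6.39 CPM and 8.19 CPM with Dppa3, against 135 CPM and 64.2 CPM without. Dnmt3b, a DNA methyltransferase of the primed state, stood at 482 CPM with Dppa3 and 418 CPM without. Of 8 germline genes at 20 CPM or more, Ifitm1 and Ifitm3 were higher and Rhox6 and Rhox9 lower with Dppa3, against the same shares of 2.78% and 5.47% of all genes. Rhox6 and Rhox9 reached 20 CPM only in the cells without Dppa3. Median depth was 45144 UMIs in the cells with Dppa3 and 41701 UMIs in the cells without, and its part in these values was not tested.

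Sox2 lay in 3 places in the knockout library. The pluripotent-like cluster held 32.1% of its knockout UMIs and 49.6% of its control UMIs. Cluster 12, with 483 knockout cells and 8 control cells, held 30.1% of the knockout UMIs at 152 CPM (146 to 159) and 3.79% of the control UMIs at 177 CPM (131 to 235; 48 UMIs). This cluster was led by Hoxc10, Lefty2, Hoxd11, Hoxa9, Trh and Cdx2 and reached 3 markers of no list, so it was given no name. All other clusters held 37.8% of the knockout UMIs at 9.52 CPM and 46.6% of the control UMIs at 2.04 CPM. Of the difference of 18.9 CPM between the libraries, cluster 12 held 36.2%, the other clusters together 35.8% and the pluripotent-like cluster 28.0%.

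Most Sox2 was found without Pou5f1. After thinning, 1266 knockout cells (13.4%) and 131 control cells (2.06%) held a Sox2 UMI, and 1085 of the knockout cells and 109 of the control cells had no Pou5f1 UMI. Cells without a Pou5f1 UMI held 66.6% of the Sox2 UMIs of the knockout library (65.6 to 67.7%) and 48.8% of those of the control library (46.0 to 51.6%). Both transcripts were found together in 181 knockout cells, 156 of them pluripotent-like, and in 22 control cells, 20 of them pluripotent-like. In cluster 12, 68.1% of the knockout cells (63.8 to 72.3%) held Sox2 without Pou5f1, and Pou5f1 stood there at 2.29 CPM, the level of the other clusters. Of 499 knockout cells with at least 2 Sox2 UMIs and no Pou5f1 UMI, 249 lay in cluster 12, whereas the 40 such control cells were divided among clusters, with 14 in a cardiomyocyte-like cluster and 4 in cluster 12.

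**Figure D5:**
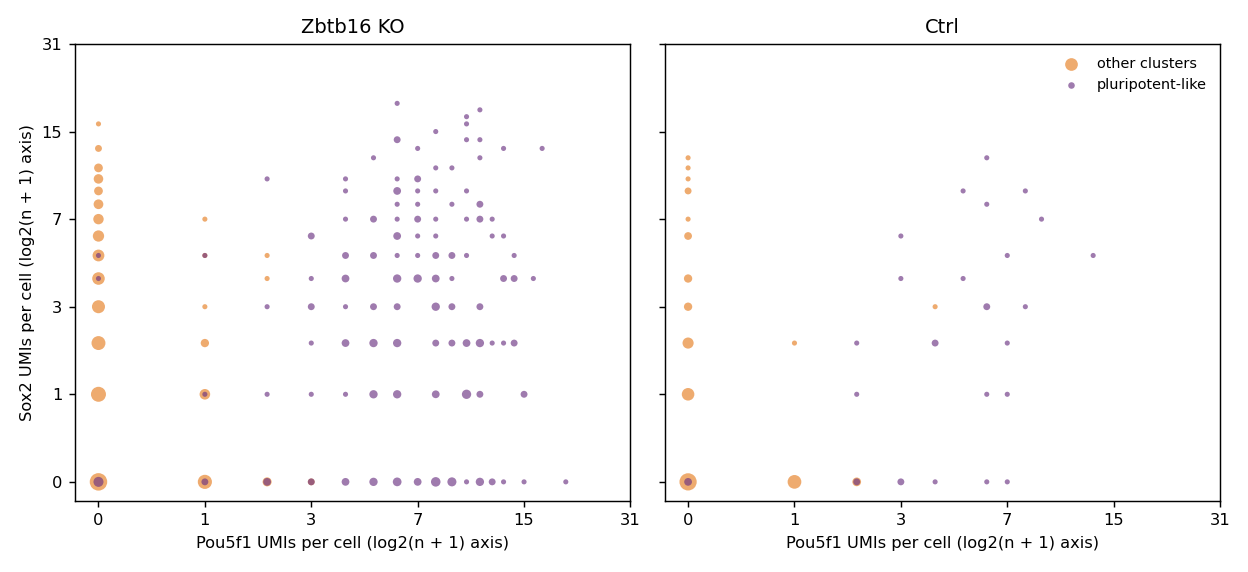
Sox2 UMIs (y axis) against Pou5f1 UMIs (x axis) per cell after thinning to 15000 UMIs, both on log2(n + 1) axes, in the Zbtb16_KO library (left) and the Ctrl library (right). Each point is 1 pair of values, larger points stand for more cells, purple marks pluripotent-like cells and orange all other cells. Cells with Sox2 fall in 2 arms, pluripotent-like cells with Pou5f1 and other cells along the axis at 0 Pou5f1, and the arm at 0 Pou5f1 holds 1085 knockout cells and 109 control cells.

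The low Sox2 of the large knockout clusters was found in each of them, but in a minority of their cells. Clusters 0, 1, 3, 4 and 6, whose leading genes include Postn, Tac2 or Ccn4, held 7893 knockout cells, or 83.5% of that library, and 35.2% of its Sox2 UMIs at 10.3 CPM (9.92 to 10.7). Each of the 5 lay between 9.13 and 10.7 CPM. The control library had 6 to 9 cells in each of these clusters and 17 Sox2 UMIs in them together, at 4.82 to 35.7 CPM per cluster, too few to compare levels. After thinning, 9.39% of the knockout cells of these clusters held a Sox2 UMI (8.75 to 10.1%). In full counts 1272 of them did, 242 cells held 50% of the UMIs, 28 held at least 10 UMIs and the highest count was 23. A comparison with an even spread by depth was not made for these clusters. Endothelial-like cells, taken as cells that should lack Sox2, gave 1.66% of cells in the knockout library (0.671 to 3.40%; median depth 38889 UMIs) and 0 of 278 cells in the control library, which allows up to 1.08%. Their level was 2.68 CPM in the knockout library and 0.118 CPM in the control library.

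In the knockout library there were 0.972 Sox2 UMIs per Pou5f1 UMI in free RNA, 1.22 in endothelial-like cells and 1.14 in visceral endoderm-like cells. The ratio was 4.32 in the 5 large clusters, from 2805 Sox2 and 649 Pou5f1 UMIs, and 66.7 in cluster 12. The part of free RNA in the Sox2 counts was not tested. In the control library the ratio was 0.765 in free RNA and 0.0667 in endothelial-like cells. Sox2ot, a non-coding RNA whose gene spans Sox2, stood at 0.303 CPM in the knockout library and 0.106 CPM in the control library, far under Sox2 in each.

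Among genes singled out after their values were seen, Nodal and Lefty2 stood higher in cells with Sox2 and no Pou5f1 than in cells with neither, in both libraries. Both reached 20 CPM only in the Sox2 cells, so their being higher at that limit is no result and the levels are a description. Of the knockout Sox2 cells, 249 lay in cluster 12, of which Lefty2 is a leading gene. Among the 497 knockout cells outside the pluripotent-like cluster with at least 2 Sox2 UMIs and no Pou5f1 UMI, the ligand Nodal stood at 56.3 CPM, against 2.37 CPM in knockout cells with neither gene. In the 40 such control cells Nodal stood at 75.4 CPM, against 3.40 CPM in control cells with neither. Lefty2, a secreted Nodal inhibitor, stood at 48.0 CPM in the Sox2 cells of the knockout library against 1.35 CPM in its cells with neither, and at 75.9 CPM in the Sox2 cells of the control library against 0.981 CPM in its cells with neither. Sp5, a target of Wnt signalling, stood at 18.7 CPM in the Sox2 cells of the knockout library against 4.07 CPM in its cells with neither, and at 23.5 CPM in the Sox2 cells of the control library against 3.93 CPM in its cells with neither.

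Of 11 neuromesodermal and posterior genes, 2 reached 20 CPM in the knockout Sox2 cells or those with neither, Cdx2 and Nkx1-2. Both reached it only in the Sox2 cells, so their being higher there follows from this limit and is no result. Of all 6534 genes at that level, 2.36% were higher with Sox2 and 1.88% lower. In the control library 1 gene reached that level, Sp5, again only in the Sox2 cells. Of all 6463 genes at that level there, 2.38% were higher and 2.97% lower. Cdx2, a homeobox factor of the posterior embryo, stood at 66.8 CPM in the Sox2 cells of the knockout library and 5.50 CPM in those of the control library. Nkx1-2, known from neuromesodermal progenitors, stood at 21.2 CPM in the Sox2 cells of the knockout library and 4.50 CPM in those of the control library. T (Brachyury), which also marks such progenitors, had 9 UMIs in the knockout Sox2 cells, or 0.527 CPM, and 0 UMIs in the control Sox2 cells. The summed level of 18 neural genes was 186 CPM in the knockout Sox2 cells and 177 CPM in knockout cells with neither gene, and 5 of the 18 had no UMI in the Sox2 cells. Of the 3 neural genes at 20 CPM or more, Nes, an intermediate filament of progenitors, was higher with Sox2. Of the 10 genes, Dppa5a at 2.11 CPM, Nanog at 0.762 CPM and Utf1 at 0.351 CPM in the knockout Sox2 cells were at the level of the clusters outside the pluripotent-like one.

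Within cluster 12, 3 of the 4 primed epiblast genes at 20 CPM or more, Nodal, Lefty1 and Lefty2, were higher in cells with Sox2, where 1.32% of 6594 genes were higher and 0.652% lower. Nodal stood at 91.8 CPM in the 249 cells with at least 2 Sox2 UMIs and 42.9 CPM in the 139 cells with none. Lefty1, another Nodal inhibitor, stood at 36.4 CPM in the cells with Sox2 and 7.84 CPM in those without, and Lefty2 at 91.1 CPM in the cells with Sox2 and 49.1 CPM in those without. Lefty1 thus reached 20 CPM only in the cells with Sox2. Cdx2 stood at 110 CPM with Sox2 and 114 CPM without. In the 248 knockout Sox2 cells outside cluster 12, Nodal stood at 23.6 CPM, Lefty2 at 8.32 CPM and Cdx2 at 26.9 CPM, against 2.37 CPM, 1.35 CPM and 9.75 CPM in knockout cells with neither Sox2 nor Pou5f1. Lefty2 and Cdx2 are leading genes of cluster 12, so their levels against other clusters are no result.

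The genes most like Pou5f1 and Sox2 across cells differed as well. Over all 9449 knockout cells and 11531 genes, the highest Pearson's r with Pou5f1 were those of Dppa5a (0.904), Pla2g1b (0.824), Gdf3 (0.801), L1td1 (0.796), Utf1 (0.790), Platr10 (0.788), Tdgf1 (0.772), Rbmxl2 (0.747), Tcea3 (0.724) and Chchd10 (0.716). For Sox2 the values were lower and led by Nodal (0.541), followed by Dppa5a (0.456), Utf1 (0.451), 1700097N02Rik (0.436), Dppa3 (0.422) and Tdh (0.413), with Pou5f1 ninth at 0.407. Over the 8546 knockout cells with no Pou5f1 UMI, Nodal again led (0.533), followed by Pmepa1 (0.380), Lefty2 (0.372), Col9a2 (0.338), Pcdh19 (0.321), Cdx2 (0.313) and Lef1 (0.305). The cells come from 1 library and differ in depth, and these values are a description.

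Other genes of the pluripotent state moved less uniformly. Of 25 further pluripotency genes, 23 were measured over all cells, 12 of them higher and 2 lower in the knockout library, with a median log2 ratio of 0.68. Of all 14345 genes measured, 14.1% were higher and 11.5% lower. Among the 12, Fgf4 reached 0.5 CPM only in the knockout library, so its being higher follows from this limit. The 4 most abundant of the 23 lay within 1.5-fold. Lin28a, an RNA-binding protein, stood at 116 CPM in the knockout library and 114 CPM in the control library, and Tbx3, a T-box factor, at 74.5 CPM in the knockout library and 52.1 CPM in the control library. Sall4, a zinc finger partner of Pou5f1, stood at 70.8 CPM in both libraries, and Phc1, a Polycomb protein, at 55.1 CPM in the knockout library and 57.8 CPM in the control library. Gdf3, a ligand related to Nodal, stood at 2.40 CPM in the knockout library and 0.691 CPM in the control library, while Trap1a was lower, at 3.10 CPM in the knockout library and 11.1 CPM in the control library.

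Of 13 genes of the primed epiblast, the state after implantation, 12 were measured and 10 were higher and none lower in the knockout library, with a median log2 ratio of 1.36. Of all genes measured, 14.1% were higher and 11.5% lower. Among the 10, Foxd3 and Sox3 reached 0.5 CPM only in the knockout library, so their being higher follows from this limit. Lefty1 stood at 3.18 CPM in the knockout library and 0.691 CPM in the control library, and Fgf15 at 5.00 CPM in the knockout library and 1.15 CPM in the control library. Nodal stood at 8.29 CPM in the knockout library and 4.48 CPM in the control library. Of the epithelial adhesion genes, Cdh1 (E-cadherin) stood at 7.31 CPM in the knockout library and 2.51 CPM in the control library, and Epcam at 29.5 CPM in the knockout library and 19.5 CPM in the control library. Dnmt3b, at 71.3 CPM in the knockout library and 66.8 CPM in the control library, lay within 1.5-fold. Of 16 germline genes 11 were measured, 5 of them higher and 3 lower, against the same shares of all genes. Among the 5, Rhox6 and Rhox9 reached 0.5 CPM only in the knockout library, so their being higher follows from this limit. Rhox6 stood at 1.90 CPM in the knockout library and 0.209 CPM in the control library, and Nanos3 at 0.659 CPM in the knockout library and 2.32 CPM in the control library. Ifitm1, Ifitm3 and Alpl lay within 1.5-fold, and Rhox5 was lower, at 35.5 CPM in the knockout library and 54.8 CPM in the control library.

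Read within the pluripotent-like cluster alone, the same lists gave another picture. Of 22 pluripotency genes at 20 CPM or more there, 2 were higher and 6 lower in knockout cells, with a median log2 ratio of −0.17, against 0.15 for all genes. Of all 6212 genes at that level, 19.0% were higher and 3.43% lower in knockout cells. Of 9 primed epiblast genes, 4 were higher and none lower, with a median of 0.46. Among the 4, Lefty1 and Lefty2 reached 20 CPM only in knockout cells. Among genes singled out after their values were seen, Lefty1 stood at 45.6 CPM in knockout cells and 5.13 CPM in control cells (496 and 12 UMIs), Nodal at 79.6 CPM in knockout cells and 44.9 CPM in control cells, and Eras, a Ras protein of embryonic stem cells, at 34.4 CPM in knockout cells and 68.4 CPM in control cells. Of 8 germline genes, 2, Dnd1 and Rhox6, were higher and 1, Ifitm3, lower. Dnd1 and Rhox6 reached 20 CPM only in knockout cells, so their being higher follows from this limit and is no result. Genes of other cell types moved with these values. The summed level of 13 mesenchymal genes was 309 CPM in knockout and 86.7 CPM in control pluripotent-like cells, Postn had 240 UMIs in the knockout cells and 0 in the control cells, and the cardiomyocyte gene Myl7 had 70 UMIs in the knockout cells and 84 in the control cells. Their part in the differences was not tested.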

How the data were processed

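The authors deposited raw UMI counts per gene and barcode for 2 libraries, written by Cell Ranger 4 per the file headers. The submitters' processing notes also name R 4.1.1 and, as build, GRCm39 or mm39. The kit was MGI's DNBelab C Series, per the labels' protocols, and the sources used here do not say how its barcodes came to Cell Ranger's form. The matrices were unfiltered, with 2775689 barcodes and 357324373 UMIs in the knockout library and 2934307 barcodes and 308465930 UMIs in the control library. The number of replicates is 1 per group, so no test was made.

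UMIs were summed over kept cells and turned into CPM. Log2 ratios used a prior of 0.1 CPM on each side, ratios none, and genes at 0.5 CPM in either library counted as measured (20 CPM within pluripotent-like cells). Intervals are exact Poisson, Clopper-Pearson or conditional binomial at 95%. Shares of cells were read after each cell was thinned at random, without replacement, to 15000 UMIs, and levels and shares of UMIs from full counts. The limit for a share of 0 is 3 cells of the total. Cells were clustered in scanpy 1.11.5 on log-normalised counts of 2000 variable genes, 30 components and 15 neighbours, by the Leiden method (leidenalg 0.10.2) at resolution 1. A cluster took a name from at least 3 markers, and more than of any other list, among its 10 leading genes, ranked by fold over the other clusters' median with a floor of 20 CPM. Scrublet at an expected rate of 6% marked 0.0212% of knockout and 0.0157% of control cells, too few for its calls to be used. The ratio step was tested on simulated data.

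The rule for named genes took all 10 genes, the 10 genes of highest correlation with Pou5f1 and with Sox2 at 2 CPM or more, Zbtb16, and from each list the 4 of highest mean CPM and the 2 of largest ratio. The correlations used log-normalised counts. The members and the gene lists were chosen with earlier results of these data known. Genes compared between cells with and without Sox2, and between cells with and without Dppa3, were chosen after their values were seen, and the counts of genes in those comparisons, over genes at 20 CPM or more in either set of cells, were added then. Alternatives covered the UMI and mitochondrial limits, the prior, TMM scaling (edgeR 4.0.16), the same weight for every cell, the low-value filter, the deepest barcodes, free RNA, thinning and the number of genes per cell. Those that left out the pluripotent-like cluster or the cell richest in the 10 genes, and those on resolution, were added after the data were seen.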

Additional observations from a re-analysis of the deposited data

Results flagged for a closer look

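Dppa5a was compared between the libraries in 3 classes of cells, and in both results that follow the direction differed between classes. In endothelial-like cells it stood at 1.73 CPM in knockout cells and 0.473 CPM in control cells (36 and 8 UMIs), while in pluripotent-like cells it stood at 2290 CPM in knockout cells and 3529 CPM in control cells. The log2 ratio was 2.30 higher in endothelial-like than in pluripotent-like cells. In visceral endoderm-like cells it stood at 1.81 CPM in knockout cells and 10.3 CPM in control cells (21 and 89 UMIs), and the log2 ratio was 4.11 higher in endothelial-like than in these cells. Neither difference was tested, since each class comes from 1 library per group. A single control cell held 80 of the 89 UMIs in visceral endoderm-like cells, and without the richest cell of each library Dppa5a stood there at 1.13 CPM in knockout cells and 1.05 CPM in control cells. Free RNA held Dppa5a at 126 CPM in the knockout library and 22.8 CPM in the control library, and its part in the level of endothelial-like cells was not tested.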

How the results depend on the processing

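No paired analysis was possible because there was only 1 library of each genotype, and nothing was tested. The 10 genes' median log2 ratio of 1.43 was 1.79 at no more than 5% mitochondrial UMIs, 1.21 with a prior of 1 CPM, 1.71 with equal weight per cell, 1.99 without the 5% of barcodes with the most UMIs, 1.66 without the cell richest in the 10 genes in each library and 0.46 without the pluripotent-like cluster. Without that cluster 2 of the genes that passed the filter were higher, Sox2 and Nanog, and 2 lower. The number of lower genes was also 2 without the deepest 5%, and 1 with equal weight per cell or with free RNA subtracted. The knockout share of cells with at least 3 genes was 3.44% at 25000 UMIs or more, 2.97% at no more than 5% mitochondrial UMIs, 5.39% for at least 2 genes, 2.06% for at least 4 and 4.36% without thinning. In the control library it was 2.35% for at least 2 genes, 0.362% for at least 4 and 2.08% without thinning. The share of knockout Sox2 UMIs in cells without Pou5f1 was 61.3% at 25000 UMIs or more, 63.2% at no more than 5% mitochondrial UMIs, 62.2% without thinning, 68.1% without the deepest 5% and 68.3% with 1 Pou5f1 UMI allowed. Of single genes, Tdgf1 ran from −3.57 without the pluripotent-like cluster to 0.07 at no more than 5% mitochondrial UMIs, and Tfcp2l1 from −0.19 to 0.66. The causes of these shifts were not tested, apart from the cells that an alternative removes. The 30 control cells of the pluripotent-like cluster limit every level within it.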
